A study of Mus musculus with 14 samples.

Results

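The measured genes were Creld2, Manf, Sdf2l1, Sdf2, Nucb1 and Nucb2, 6 of the 24411 genes named in the deposited count files, followed in liver RNA of mice with and without Rbbp5 in hepatocytes after tunicamycin or vehicle. They were chosen by name, as proteins of the endoplasmic reticulum (ER) and Golgi lumen that can leave the cell, together with the paralogues of 2 of them. The choice was made with the response to tunicamycin in WT and the genotype difference after tunicamycin already known, so the values of those comparisons, and of the interaction that contains them, are given as a description, with no p-value and nothing read from their counts of calls. The rise of Sdf2l1 with tunicamycin in LKO was known too, so its values and p-values in that comparison only describe it. All 6 genes passed the filter on low counts and were among the 9644 genes tested. Creld1 and Cdnf, the paralogues of Creld2 and Manf, were followed beside them.

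Both genotypes were male littermates aged 5 to 7 months that carried floxed Rbbp5 alleles on both chromosomes. WT mice lacked Alb-Cre, and LKO mice carried 1 copy of it, so that the albumin promoter drives recombination in hepatocytes while other liver cells keep the gene. The genotype label of the knockout samples spells the gene RRBP5, whereas the design text has RBBP5, a shared subunit of the enzyme complexes that methylate histone H3 at lysine 4. Tunicamycin, which blocks N-linked glycosylation and so leaves misfolded protein in the ER, was given once into the abdomen at 0.05 mg/kg in 500 µl of 3% DMSO in PBS, and controls received that vehicle. Injections were made from 9 to 10 in the morning, and the liver was taken 8 h later. With either treatment there were 3 WT libraries and 4 LKO libraries. The labels name each library as a separate sample and say nothing more on how the replicates were obtained, so p-values measure the spread between these samples.

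Libraries held from 1704479 to 3551398 gene-strand reads after the 45S ribosomal RNA gene Rn45s, which took from 72.5 to 75.5% of reads on genes. The counts of libraries 3 and 4 of LKO vehicle came close to sampling noise (chi-square per degree of freedom 1.12, against 3.05 to 25.5 in the other 17 pairs of libraries of 1 group) and were summed as 1 sample, which left 13 samples. WT tunicamycin 3 and LKO vehicle 2 stood farthest from the other libraries of their groups. Levels per sample are given as CPM (read counts scaled by TMM factors to library sizes that include Rn45s). Means ± SD are over 3 samples, or 4 for LKO tunicamycin. Mean Rbbp5 was 5.19 ± 1.17 CPM (SD) with vehicle and 5.36 ± 0.342 CPM with tunicamycin in WT. In LKO it was 2.94 ± 1.13 and 2.86 ± 0.597 CPM. Rbbp5 did not pass edgeR's quasi-likelihood test for LKO against WT, with an adjusted p of 0.329 with vehicle and 0.105 after tunicamycin. The library labelled LKO vehicle 1, at 4.14 CPM, lay within the WT vehicle range. Summed hepatocyte markers (6 of 6 detected) lay between 13640 and 23550 CPM in every sample. In whole liver, fewer cells of a type and less RNA per cell cannot be told apart.

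Proteins of the ER lumen are kept inside the cell by a C-terminal signal that KDEL receptors recognise in the Golgi, and a group with weaker signals escapes when the ER is stressed or loses calcium. Manf (mesencephalic astrocyte-derived neurotrophic factor) binds the chaperone BiP in the ER and acts on other cells once secreted, and Creld2 is a cysteine-rich protein with EGF-like repeats that is released under ER stress. Sdf2l1 and Sdf2 are small proteins built of MIR domains, of which Sdf2l1 works with the BiP co-chaperone Dnajb11. Nucb1 and Nucb2, the nucleobindins, are calcium-binding EF-hand proteins of the secretory pathway. Nucb1 is known as an inhibitor of ATF6 activation, and Nucb2 is the precursor of the secreted peptide nesfatin-1. ATF6 and XBP1, the transcription factors of the unfolded protein response (UPR), bind the ER stress element (ERSE), a CCAAT box and a CCACG box at a fixed distance.

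The sequences before the starts of 5 of the 6 genes are shown, to set Sdf2l1 beside Sdf2 and Nucb2 beside Nucb1, with Creld2 alone. Each spans 250 bases before to 50 after the RefSeq start (mm10), with CCAAT and CCACG in capitals on either strand (ATTGG and CGTGG on the other). They lie at chr15:88819396-88819695 on the plus strand (Creld2), chr16:17132334-17132633 on the minus strand (Sdf2l1), chr11:78245496-78245795 on the plus strand (Sdf2), chr7:116504119-116504418 on the plus strand (Nucb2) and chr7:45510359-45510658 on the minus strand (Nucb1).
Creld2: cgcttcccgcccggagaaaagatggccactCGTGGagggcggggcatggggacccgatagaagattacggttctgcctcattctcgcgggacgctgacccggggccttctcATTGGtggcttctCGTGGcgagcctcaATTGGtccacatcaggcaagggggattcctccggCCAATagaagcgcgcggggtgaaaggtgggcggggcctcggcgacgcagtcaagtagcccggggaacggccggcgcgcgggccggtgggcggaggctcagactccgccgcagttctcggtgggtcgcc
Sdf2l1: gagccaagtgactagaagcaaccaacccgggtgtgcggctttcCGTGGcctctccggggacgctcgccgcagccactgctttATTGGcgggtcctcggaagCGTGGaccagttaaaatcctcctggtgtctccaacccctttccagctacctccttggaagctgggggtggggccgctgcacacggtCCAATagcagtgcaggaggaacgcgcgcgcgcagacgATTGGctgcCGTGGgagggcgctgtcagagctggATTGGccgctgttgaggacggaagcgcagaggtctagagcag
Sdf2: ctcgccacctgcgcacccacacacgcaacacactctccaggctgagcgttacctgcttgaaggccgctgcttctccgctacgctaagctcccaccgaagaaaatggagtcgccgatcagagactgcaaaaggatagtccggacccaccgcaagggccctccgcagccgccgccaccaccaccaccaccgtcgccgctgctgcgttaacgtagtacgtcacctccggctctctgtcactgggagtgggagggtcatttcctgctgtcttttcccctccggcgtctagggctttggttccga
Nucb2: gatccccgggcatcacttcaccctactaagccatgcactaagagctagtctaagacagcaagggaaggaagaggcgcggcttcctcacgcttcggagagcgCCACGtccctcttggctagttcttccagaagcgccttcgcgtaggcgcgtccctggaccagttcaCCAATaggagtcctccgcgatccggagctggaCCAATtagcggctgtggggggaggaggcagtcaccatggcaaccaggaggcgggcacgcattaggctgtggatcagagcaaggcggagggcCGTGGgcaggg
Nucb1: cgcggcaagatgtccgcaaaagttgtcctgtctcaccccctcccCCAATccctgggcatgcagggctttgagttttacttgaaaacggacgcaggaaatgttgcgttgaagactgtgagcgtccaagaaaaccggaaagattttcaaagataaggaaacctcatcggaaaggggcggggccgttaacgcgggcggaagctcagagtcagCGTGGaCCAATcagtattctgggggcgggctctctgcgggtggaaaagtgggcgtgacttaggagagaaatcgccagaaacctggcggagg

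The Creld2 window held 1 complete ERSE (CCAAT, any 9 bases and CCACG, searched on both strands), which reads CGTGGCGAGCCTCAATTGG on the strand shown and begins at -126 from the start. ERSE matches were found in 35 of 26994 such windows of mouse genes, or 0.13%. Nucb1 held the only ERSE-II of the 5 windows (ATTGG, any 1 base and CCACG, on either strand, read as CGTGGACCAAT at -41), a form present in 10 windows or 0.037%. Sdf2l1 had 4 CCAAT and 3 CCACG matches, and Nucb2 had 2 of each, but none at the ERSE spacing. Sdf2 had none of either box, which are found in 37.9% (CCAAT) and 32.7% (CCACG) of windows and which also make up the ERSE. Matches to UPRE (TGACGTGG, in 0.608% of windows) and to the ATF4-type CARE (TGATGNAAN, 4.04%) were absent from all 5. These matches describe letters in a window and do not show binding.

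The Creld2 ERSE (chr15:88819520-88819538, mm10) also lies inside the window of Alg12, a mannosyltransferase gene that starts 328 bases away on the opposite strand. Alg12 had at most 21 reads in a sample and a tunicamycin log2 fold change of 0.06 ± 0.36 (SE) in WT, with an edgeR adjusted p of 0.956. Of the 35 genes with an ERSE in the window, 15 were tested, Creld2 among them, and 12 had a log2 fold change above 0 in WT, with a median of 0.75 against 0.01 over all genes tested. By edgeR's quasi-likelihood test 3 of the 15 rose, Derl3, Hsp90b1 and Hspa5, named after their values were seen, where 0.29% of all genes did. Without WT vehicle 1 or 2 or WT tunicamycin 1, 0 genes of the whole table were called in WT, with 1001 to 1241 genes at an unadjusted p under 0.05, so these calls were lost too. Of the 10 genes with an ERSE-II, 6 were tested and 1 rose in WT, the co-chaperone gene Dnajb11, with a median of 0.23 and Nucb1 among the 6.

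Levels between genes were compared as FPKM, the authors' deposited values per transcript length. In WT vehicle, Manf was highest at 5.73 ± 0.266 FPKM (SD), ahead of Nucb1 at 4.07 ± 0.275, Sdf2l1 at 2.75 ± 0.175 and Creld2 at 2.22 ± 0.501. Sdf2, at 1.02 ± 0.308, and Nucb2, at 0.379 ± 0.224, were lowest. Of these neighbours in order, Sdf2l1 and Creld2 overlapped over the samples and the others did not. In WT tunicamycin the order was Manf (14.2 ± 7.19), Creld2 (10.0 ± 5.91), Sdf2l1 (8.11 ± 2.98), Nucb1 (3.83 ± 0.518), Nucb2 (1.54 ± 0.592) and Sdf2 (1.54 ± 0.173), and the ranges of the first 3 overlapped. In LKO tunicamycin it was Manf (5.97 ± 1.40), Sdf2l1 (4.79 ± 0.920), Nucb1 (4.17 ± 0.678), Sdf2 (1.30 ± 0.465), Creld2 (1.27 ± 0.649) and Nucb2 (0.965 ± 0.304). The level of Creld2 was thus next to that of Manf in treated WT liver and next to that of Sdf2 in treated LKO liver.

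**Figure D1:**
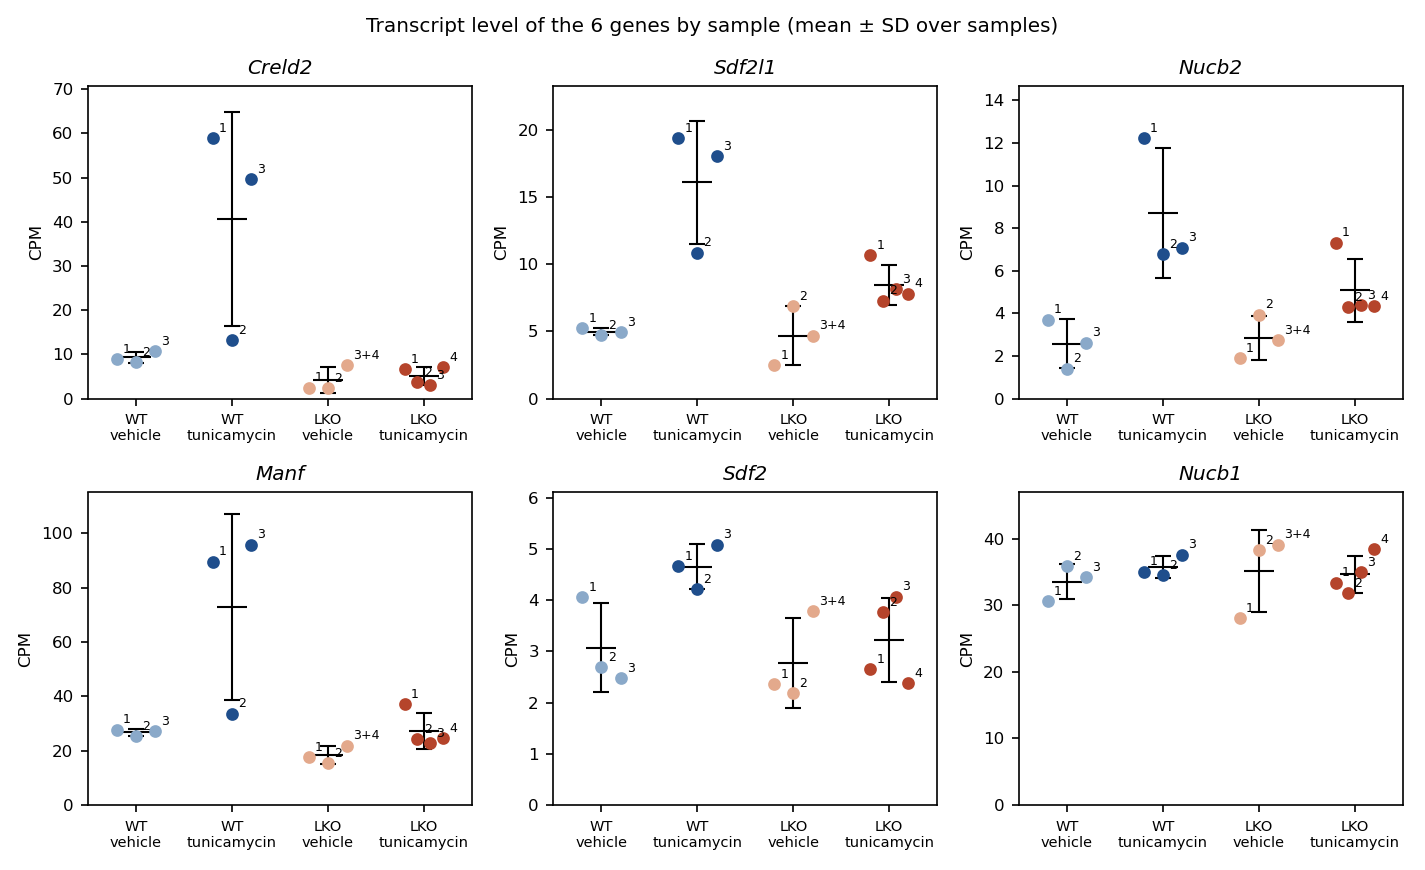
Level of each of the 6 genes in CPM (y axis) by group (x axis), with 1 point per sample labelled by its number and the mean ± SD in black. Creld2, Manf, Sdf2l1 and Nucb2 were highest in WT tunicamycin, where WT tunicamycin 2 was the lowest of its group for all of them, and Nucb1 lay between 28.0 and 39.1 CPM in every sample.

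Creld2 (chromosome 15, 88819646 to 88826681, mm10) had the largest ratio of highest to lowest CPM of the 6 genes over the 13 samples. It stood at 8.97, 8.32 and 10.8 CPM in WT vehicle 1, 2 and 3, and at 58.9, 13.3 and 49.6 CPM in WT tunicamycin 1, 2 and 3. LKO vehicle samples had 2.48, 2.41 and 7.58 CPM (the last is the sum of libraries 3 and 4), and LKO tunicamycin 1 to 4 had 6.65, 3.77, 2.95 and 7.05 CPM. Treated WT samples were all above the untreated ones, but WT tunicamycin 2 only narrowly, whereas every LKO sample, treated or not, was below every WT sample. The log2 fold change with tunicamycin was 2.13 ± 0.45 (SE) in WT and 0.20 ± 0.50 in LKO. Leaving out 1 sample, the WT value ranged from 1.76 (without WT tunicamycin 1) to 2.54 (without WT tunicamycin 2). The LKO value ranged from -0.10 (without LKO vehicle 2) to 1.05 (without the summed LKO vehicle sample).

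Manf (chromosome 9, 106887415 to 106891938) was also highest in treated WT liver. It stood at 27.7, 25.3 and 27.1 CPM in WT vehicle and at 89.6, 33.7 and 95.9 CPM in WT tunicamycin 1, 2 and 3. In LKO it stood at 17.7, 15.5 and 21.9 CPM with vehicle and at 37.2, 24.3, 22.9 and 24.7 CPM after tunicamycin. Treated WT samples were all above untreated ones, with sample 2 again close to them, and treated LKO samples were all above untreated LKO samples and reached the WT vehicle range. The log2 fold change with tunicamycin was 1.45 ± 0.28 (SE) in WT and 0.56 ± 0.27 in LKO, and the WT value was 1.79 without WT tunicamycin 2 and 1.21 without WT tunicamycin 3. Reads of Cdnf, the paralogue of Manf, numbered at most 2 in a sample, beside 150 to 652 reads of Manf, so no ratio was formed.

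Sdf2l1 (chromosome 16, 17130138 to 17132383) had 5.26, 4.73 and 4.95 CPM in WT vehicle and 19.4, 10.8 and 18.0 CPM in WT tunicamycin 1, 2 and 3. In LKO it had 2.48, 6.85 and 4.68 CPM with vehicle and 10.6, 7.28, 8.14 and 7.80 CPM after tunicamycin. Treated samples lay above untreated ones in both genotypes, and WT tunicamycin 2 was 2.18 times the WT vehicle mean, against 1.42 times for Creld2 and 1.26 times for Manf in that sample. The log2 fold change was 1.69 ± 0.28 (SE) in WT and 0.80 ± 0.25 in LKO. Without LKO vehicle 2, whose level was the highest of its group, the LKO value was 1.15.

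Nucb2 (chromosome 7, 116504369 to 116540588) had 3.71, 1.41 and 2.62 CPM in WT vehicle and 12.2, 6.80 and 7.09 CPM in WT tunicamycin 1, 2 and 3. In LKO it had 1.89, 3.94 and 2.72 CPM with vehicle and 7.32, 4.29, 4.37 and 4.34 CPM after tunicamycin. As for Sdf2l1, treated samples lay above untreated ones in both genotypes, and WT tunicamycin 2 was 2.64 times the WT vehicle mean. The log2 fold change was 1.75 ± 0.34 (SE) in WT and 0.78 ± 0.30 in LKO. Between 11 and 89 reads lay behind each value.

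Sdf2 and Nucb1, the paralogues among the 6 genes, had smaller fitted changes with tunicamycin in WT than Sdf2l1 and Nucb2. Sdf2 (chromosome 11, 78245746 to 78255496) had 4.06, 2.69 and 2.48 CPM in WT vehicle, 4.67, 4.21 and 5.09 in WT tunicamycin, 2.37, 2.19 and 3.79 in LKO vehicle and 2.66, 3.77, 4.07 and 2.38 in LKO tunicamycin. Treated WT samples lay just above untreated ones and the LKO groups overlapped, with log2 fold changes of 0.58 ± 0.28 (SE) in WT and 0.18 ± 0.25 in LKO. Nucb1 (chromosome 7, 45492674 to 45510408) ranged from 30.6 to 35.8 CPM in WT vehicle, 34.5 to 37.6 in WT tunicamycin, 28.0 to 39.1 in LKO vehicle and 31.8 to 38.4 in LKO tunicamycin. All 4 groups of Nucb1 overlapped, with log2 fold changes of 0.09 ± 0.13 (SE) in WT and -0.03 ± 0.12 in LKO. Creld1 (chromosome 6, 113483569 to 113493338), the membrane-anchored relative of Creld2, ranged from 3.47 to 3.84 CPM in WT vehicle, 3.72 to 5.86 in WT tunicamycin, 2.72 to 3.02 in LKO vehicle and 1.43 to 3.47 in LKO tunicamycin.

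For WT with tunicamycin, a contrast known when the genes were chosen, the counts that follow only describe them. In the edgeR fit 3 of the 6 were past the threshold (Sdf2l1, Nucb2 and Manf), as were 0.29% of all genes tested in that direction. The CPM ranges of both groups were apart for 5 genes, all but Nucb1, against 8.62% of all genes in that direction. The median log2 fold change of the 6 was 1.57, against 0.01 over all genes. The count of calls was 0 without WT vehicle 1, 2 or 3 or without WT tunicamycin 1, and 1 (Sdf2l1) without LKO tunicamycin 2, 3 or 4. Creld2 was also past the threshold without WT tunicamycin 2 or 3, LKO vehicle 2 or the summed LKO vehicle sample.

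The response in LKO mice was tested over all genes. For Sdf2l1, whose rise in LKO was known when the genes were chosen, the values and p-values here are only a description. By edgeR's quasi-likelihood test, 0 of the 6 passed, where 0.0311% of all genes did and 1172 genes had an unadjusted p under 0.05. The Benjamini-Hochberg adjusted edgeR p was 0.247 for Sdf2l1, 0.328 for Nucb2, 0.422 for Manf, 0.836 for Sdf2, 0.919 for Creld2 and 0.964 for Nucb1. The CPM ranges were apart for 3 genes, Sdf2l1, Nucb2 and Manf, each higher after tunicamycin, against 5.03% of all genes. The median log2 fold change of the 6 was 0.38, against 0.00 over all genes. Sdf2l1 passed when low counts were not filtered (edgeR adjusted p 0.0446). Its adjusted p over the edgeR and limma alternatives ranged from 0.0446 to 0.575.

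With vehicle, LKO was set against WT to ask whether the genes differed before any stress. Creld2 had a log2 fold change of -1.08 ± 0.51 (SE) and Manf of -0.54 ± 0.29, while Sdf2l1 was at -0.04 ± 0.29, Nucb2 at 0.17 ± 0.37, Sdf2 at -0.12 ± 0.28 and Nucb1 at 0.07 ± 0.13. None of the 6 passed edgeR's quasi-likelihood test, where 0.0415% of all genes did and 789 had an unadjusted p under 0.05, with adjusted p from 0.604 (Creld2) to 0.991 (Sdf2l1). For Creld2 and Manf every LKO sample was nonetheless below every WT sample, a pattern that 7.6% of all genes showed in that direction. For Creld2 the value depended on the summed LKO vehicle sample and was -1.93 without it, with an edgeR adjusted p of 0.181. It was -0.78 without LKO vehicle 2, with an edgeR adjusted p of 0.918.

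After tunicamycin, the log2 fold change of LKO against WT was -3.004 ± 0.44 (SE) for Creld2, -1.43 ± 0.26 for Manf, -0.94 ± 0.24 for Sdf2l1, -0.80 ± 0.29 for Nucb2, -0.53 ± 0.26 for Sdf2 and -0.04 ± 0.12 for Nucb1. Creld2 was thus 8.02-fold lower in LKO and Manf 2.69-fold lower. This contrast too was known when the genes were chosen, so its counts are a description from which nothing is read. Creld2 and Manf were the 2 genes past the edgeR threshold, as were 0.55% of all genes in that direction, and the CPM ranges were apart for Creld2, Sdf2l1 and Sdf2, against 6.58% of all genes in that direction. Manf overlapped because LKO tunicamycin 1, at 37.2 CPM, was above WT tunicamycin 2, at 33.7 CPM. The count of calls was 0 without WT tunicamycin 1 and 1 (Creld2) without WT tunicamycin 3 or without LKO tunicamycin 2, 3 or 4. Sdf2l1 was also past the threshold without WT tunicamycin 2, LKO vehicle 1 or LKO vehicle 2.

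Summed markers of other cells were set beside these differences. Bile duct markers (5 of 5 detected) ranged from 8.59 to 11.7 CPM in WT and from 17.4 to 55.1 CPM in LKO with vehicle, without overlap, and from 8.48 to 42.5 and 35.7 to 110.5 CPM after tunicamycin, with overlap. Of these, Spp1 and Sox9 were tested, and neither passed edgeR's test by genotype. With vehicle their log2 fold changes were 2.23 (edgeR adjusted p 0.2935) for Spp1 and 0.52 (0.743) for Sox9. After tunicamycin they were 1.36 (0.212) for Spp1 and -0.23 (0.803) for Sox9. Kupffer cell and macrophage markers (6 of 6) overlapped between genotypes, from 36.2 to 40.8 and 27.2 to 46.7 CPM with vehicle and from 38.8 to 55.1 and 42.8 to 89.1 CPM after tunicamycin. Markers of secretory cells that carry much ER were near 0, with plasma and B cell markers at most 2.48 CPM (Mzb1 and Cd79a at 0 in both WT groups) and pancreatic acinar markers at most 2.73 CPM (Cel at 0 in all 4 groups). Neutrophil markers (5 of 5 detected, Retnlg and Mpo at 0 in WT vehicle) ranged from 0.256 to 1.02 CPM with vehicle and from 0.462 to 8.93 CPM after tunicamycin in WT, with overlap. In LKO they ranged from 0.946 to 3.13 CPM with vehicle and from 4.23 to 8.32 CPM after tunicamycin, so that they were higher in every treated LKO sample, as Sdf2l1, Nucb2 and Manf were. Neither S100a8 nor S100a9 passed edgeR's test with tunicamycin in LKO, at 1.565 (log2, adjusted p 0.348) and 2.58 (0.215). Stellate cell and fibroblast markers (61.0 to 103.5 CPM in WT and 95.8 to 134.1 in LKO with vehicle) and endothelial markers overlapped between genotypes with either treatment. The part of these cells in the differences was not tested.

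The interaction is the tunicamycin effect in LKO minus that in WT. It was -1.93 ± 0.67 (log2, SE) for Creld2, -0.98 ± 0.46 for Nucb2, -0.89 ± 0.39 for Manf, -0.89 ± 0.38 for Sdf2l1, -0.40 ± 0.38 for Sdf2 and -0.12 ± 0.18 for Nucb1. All 6 values were below 0, with a median of -0.89 against -0.02 over all genes. None passed the edgeR threshold over all genes, as 0% of all genes did, and 474 genes had an unadjusted p under 0.05. The interaction of Creld2 was -1.08 without the summed LKO vehicle sample.

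**Figure D2:**
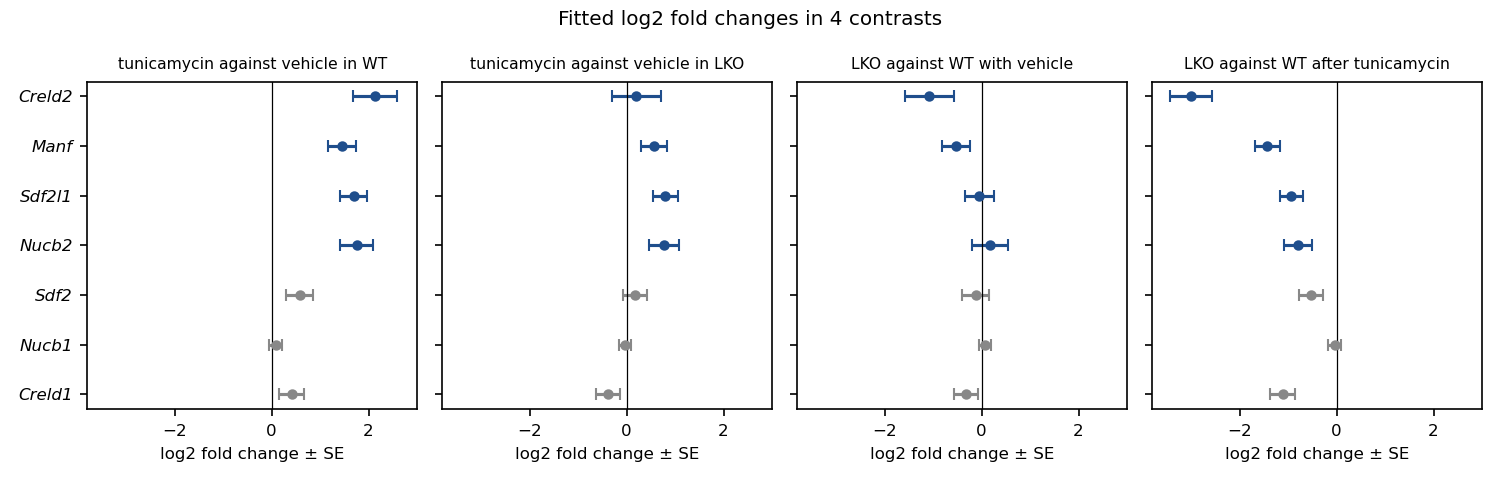
Fitted log2 fold change ± SE (x axis) of the 6 genes and Creld1 (y axis) in 4 contrasts, with Creld2, Manf, Sdf2l1 and Nucb2 in blue and the paralogues in grey. Creld2 had the largest fitted change of the 7 in WT, at 2.13, and was at 0.20 in LKO, a value that was 1.05 without the summed LKO vehicle sample.

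**Figure D3:**
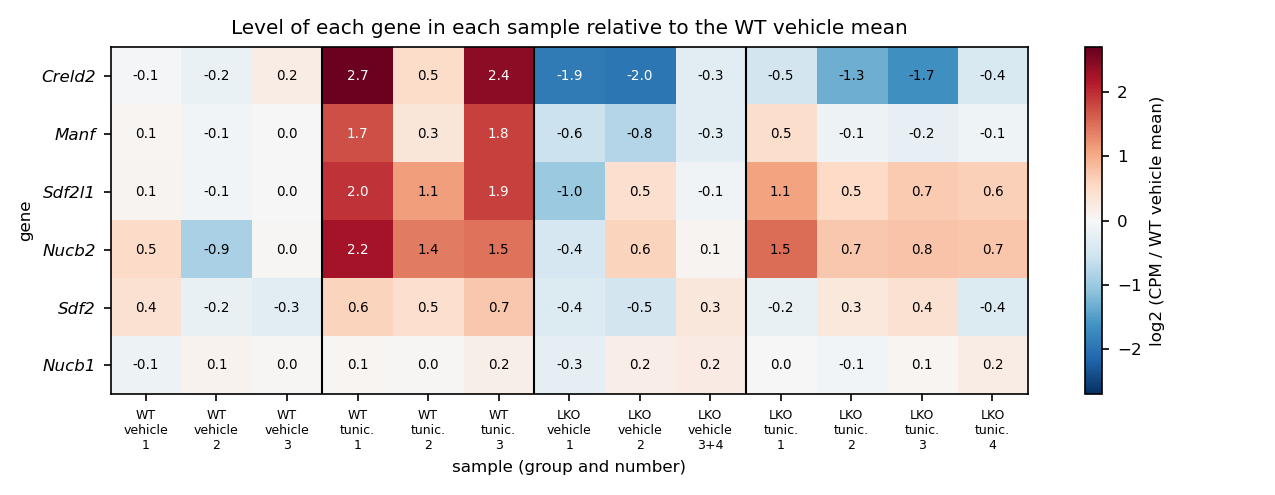
Log2 of the level in each sample over the WT vehicle mean (colour and printed values) for the 6 genes (y axis) and 13 samples (x axis, by group and number). In LKO samples Creld2 was below the WT vehicle mean throughout, while Sdf2l1 and Nucb2 were above it in all 4 treated LKO samples.

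Treated LKO livers were also set beside untreated WT livers, as a description across both factors. Sdf2l1 in LKO tunicamycin, from 7.28 to 10.6 CPM, lay above WT vehicle, from 4.73 to 5.26 CPM, and Nucb2, from 4.29 to 7.32 CPM, above 1.41 to 3.71 CPM. Ranges were apart in that direction for 12.5% of all genes. Manf overlapped the WT vehicle range, with LKO values from 22.9 to 37.2 CPM. Creld2 lay below it, from 2.95 to 7.05 against 8.32 to 10.8 CPM, and ranges were apart in that direction for 13.1% of all genes, so this position is a common one. Ratios of reads between these genes were added after the values were seen. Those of Manf to Sdf2l1, Creld2 to Nucb2 and Creld2 to Manf were formed too and are not printed. The ratio of Creld2 to Sdf2l1 reads, which needs no scaling between libraries, ranged from 1.71 to 2.18 in WT vehicle, 1.22 to 3.04 in WT tunicamycin, 0.351 to 1.62 in LKO vehicle and 0.363 to 0.903 in LKO tunicamycin. The ratio of Sdf2l1 to Nucb2 reads ranged from 1.42 to 3.36, 1.58 to 2.54, 1.31 to 1.74 and 1.45 to 1.86 in the same groups, which overlapped.

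Each induced gene was then compared with its paralogue inside each sample, as the log2 ratio of reads with 0.5 added to each. Paralogues shared no stretch longer than 17 bases between their annotated transcripts. The Nucb2 to Nucb1 ratio had a mean of -3.77 ± 0.796 (log2, SD) with vehicle and -2.08 ± 0.491 with tunicamycin in WT, and of -3.65 ± 0.328 and -2.79 ± 0.421 in LKO. Treated samples lay above untreated ones in both genotypes, by 1.69 in WT and 0.86 in LKO. In LKO the exact two-sided permutation test gave p = 0.0571, the smallest that 3 against 4 samples allow, and 0.343 after Benjamini-Hochberg adjustment over the 6 ratio tests.

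The Sdf2l1 to Sdf2 ratio had a mean of 0.72 ± 0.315 (log2, SD) with vehicle and 1.73 ± 0.350 with tunicamycin in WT, whose ranges were apart, and of 0.67 ± 0.843 and 1.40 ± 0.514 in LKO, whose ranges overlapped. The LKO difference of 0.73 had an exact permutation p of 0.229 (adjusted 0.344), a description only, because the rise of Sdf2l1 in LKO was already known. LKO vehicle 2, at 1.63, was above 2 of the 4 treated LKO samples. The Creld2 to Creld1 ratio had a mean of 1.34 ± 0.223 (log2, SD) with vehicle and 2.81 ± 0.900 with tunicamycin in WT, and of 0.29 ± 0.892 and 1.17 ± 0.474 in LKO. Treated WT samples lay above the untreated ones and above all treated LKO samples. The tests on LKO tunicamycin (difference 0.87) and on genotype with vehicle (difference -1.04) gave exact permutation p of 0.171 and 0.2 (both 0.344 adjusted). The LKO difference is not a rise of Creld2 alone. The fitted log2 fold changes with tunicamycin in LKO were 0.20 for Creld2 and -0.39 for Creld1. With vehicle, the genotype differences were -0.05 for Sdf2l1 to Sdf2 and 0.12 for Nucb2 to Nucb1, with exact permutation p of 0.9 and 1 (both 1 adjusted), where 3 against 3 samples cannot go below 0.1.

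**Figure D4:**
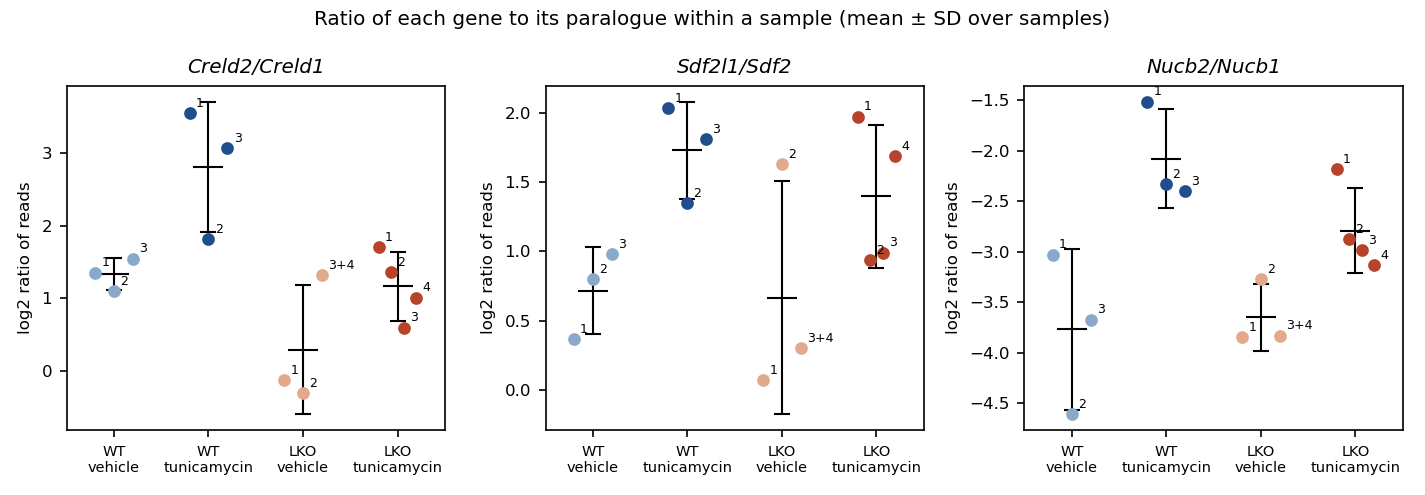
Log2 ratio of reads of each induced gene to its paralogue (y axis) by group (x axis), with 1 point per sample labelled by its number and the mean ± SD in black. The Nucb2 to Nucb1 ratio of every treated LKO sample was above every untreated one, whereas Sdf2l1 to Sdf2 and Creld2 to Creld1 overlapped in LKO.

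Creld1 was not chosen for its response and was tested in each contrast. Its log2 fold change was 0.41 ± 0.26 (SE) with tunicamycin in WT, -0.39 ± 0.25 in LKO and -0.31 ± 0.25 for genotype with vehicle, with edgeR adjusted p of 0.486, 0.573 and 0.781. After tunicamycin it was lower in LKO by the edgeR test, at -1.11 ± 0.25 with an adjusted p of 0.0460, where 0.55% of all genes were called lower. The call was lost in 10 of 13 leave-one-out fits, with adjusted p from 0.00872 to 0.182 over all its alternatives. The interaction of Creld1 was -0.80 ± 0.35, with an edgeR adjusted p of 0.947. The mean Creld2 to Creld1 ratio in treated LKO liver was -1.64 (log2) relative to treated WT liver, where Creld1 itself was lower.

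Across the 13 samples, likeness was measured as Pearson's r of log2 CPM over the 5994 genes whose mean log2 CPM was 2 or more. The samples share their groups and libraries, so r is a description. Creld2 was most like Syvn1 (r = 0.969), Hspa5 (0.967) and Atp2a2 (0.964), and Manf was most like the same 3 genes, Hspa5 (0.973), Atp2a2 (0.960) and Syvn1 (0.958). Syvn1 encodes the ubiquitin ligase of ER-associated degradation (ERAD), Hspa5 the chaperone BiP and Atp2a2 the calcium pump SERCA2. Sdf2l1 was most like Pdia3 (0.974), Pdia6 (0.971) and Calr (0.966), which encode disulfide isomerases and the calcium-binding chaperone calreticulin. Nucb2 was most like Hn1l (0.921), Spcs2 (0.915) and Sec61a1 (0.911), the last 2 of which encode parts of the signal peptidase and of the translocation channel. Sdf2 was most like Srp68 (0.865), Crls1 (0.821) and Fbxl5 (0.820), and Nucb1 was most like Lrpap1 (0.909), Dirc2 (0.844) and Lamp1 (0.772).

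Among the 6 genes, r was highest between Creld2 and Manf, at 0.932, and between Sdf2l1 and Nucb2, at 0.912. With group means removed these were 0.854 and 0.705, so the pairs also varied together inside groups. Creld2 was less like Sdf2l1 (0.706, and 0.476 with group means removed) and Nucb2 (0.574 and 0.320). Nucb1 had its highest r with Sdf2l1, at 0.414, and at 0.591 with group means removed.

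The other genes of the pathway were taken from lists of known roles. The lists too were chosen with earlier results of these data known. Their counts of calls and p-values, here and in the paragraphs on lists that follow, are therefore only a description. Of 16 ER folding genes tested, 6 rose in WT with tunicamycin by edgeR, where 0.29% of all genes did, with a median log2 fold change of 0.72 against 0.01 over all genes. Pdia4 was highest at 1.63 ± 0.22 (SE, edgeR adjusted p 0.00717), then Hspa5 at 1.57 ± 0.29 (0.0390), while Sil1 was at -0.03 ± 0.14 (0.954) and P4hb at 0.38 ± 0.15 (0.255). In LKO 0 of the 16 passed, where 0.0311% of all genes did, and the median was 0.27. After tunicamycin 8 of the 16 were lower in LKO than in WT, where 0.55% of all genes were. Among them were Hspa5 at -1.78 ± 0.27 (edgeR adjusted p 0.0102) and Pdia4 at -1.04 ± 0.20 (0.0240), and the median of the list was -0.65. The list count in WT was 0 without WT vehicle 1 or 2 or WT tunicamycin 1, and the genotype count was 0 without WT tunicamycin 1.

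Of 12 ERAD and export genes, 2 rose in WT by edgeR, where 0.29% of all genes did. They were Derl3 at 4.21 ± 0.63 (edgeR adjusted p 0.0158) and Sel1l at 0.82 ± 0.16 (0.0400), the latter named after its value was seen. Syvn1 was at 1.40 ± 0.34 (adjusted p 0.0819), Derl2 at 0.03 ± 0.13 and Herpud1 at 0.23 ± 0.32. After tunicamycin 3 of the 12, Derl3, Sel1l and Syvn1, were lower in LKO, where 0.55% of all genes were. The median of the list was -0.52, against -0.01 over all genes. Of 7 tested genes of the PERK, ATF4 and CHOP branch, Ddit3, which encodes CHOP, rose in WT at 3.71 ± 0.72 (edgeR adjusted p 0.0400), and Trib3 was at 3.23 ± 0.69 (0.0510), Sesn2 at 0.21 ± 0.54 and Ppp1r15a at 0.25 ± 0.28. Ddit3 and Trib3 were lower in LKO after tunicamycin by edgeR, at -4.02 ± 0.66 (0.0149) and -2.91 ± 0.59 (0.0332). Of 9 genes of ATF6 processing and the UPR sensors, Xbp1 rose in WT at 0.76 ± 0.16 (edgeR adjusted p 0.0468), and Atf6b was at 0.79 ± 0.30 (0.228), Creb3l3 at 0.11 ± 0.13 and Mbtps1 at 0.12 ± 0.17. In LKO 0 genes of these 3 lists passed, where 0.0311% of all genes did. The WT counts of these 3 lists were 0 in 4, 8 and 9 of 13 leave-one-out fits, in the order given, and the genotype counts of the ERAD and PERK lists were 0 without WT tunicamycin 1.

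Lists of genes that handle or resemble these proteins gave 0 calls. Of the 3 KDEL receptors 2 were tested, and Kdelr3 was not. Kdelr2 was at 0.36 ± 0.13 (log2, SE, edgeR adjusted p 0.204) and Kdelr1 at 0.14 ± 0.13 (0.659) with tunicamycin in WT, and neither passed in any contrast. Of the known binding partners 0 of 7 passed in any contrast. In WT with tunicamycin, Tnfrsf1a, the TNF receptor whose release involves Nucb2, was at 0.74 ± 0.21 (edgeR adjusted p 0.120), Ptgs1 at 0.32 ± 0.25, Lrp1 at 0.24 ± 0.24, Gnai3 at 0.03 ± 0.12, Nptn at -0.05 ± 0.16, Gnai2 at -0.07 ± 0.14 and Erap1 at -0.12 ± 0.12. Nptn encodes neuroplastin, a receptor of secreted Manf, and Gnai2 and Gnai3 encode G protein subunits that bind nucleobindins. Of 6 other EF-hand proteins of the ER and Golgi, 0 passed in any contrast, with Calu at 0.50 ± 0.17 (SE), Fkbp9 at 0.45 ± 0.20, Rcn1 at -0.28 ± 0.44 and Fkbp14 at -0.31 ± 0.69 in WT. Of 4 other genes with MIR domains, 0 passed, with Pomt2 at -0.03 ± 0.18, Pomt1 at -0.04 ± 0.28, Itpr1 at -0.21 ± 0.14 and Itpr2 at -0.22 ± 0.13 in WT. Supt6, which starts 241 bases from Sdf2 on the opposite strand, was at 0.37 ± 0.14 in WT (edgeR adjusted p 0.223) and at -0.51 ± 0.13 for LKO against WT after tunicamycin (0.0794), beside 0.58 and -0.53 for Sdf2.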

How the data were processed

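Liver RNA-seq of 14 libraries was used. Per the file headers, the authors deposited STAR's tables of read counts, whole numbers for each gene. Trimmomatic, STAR, Cufflinks and mm10 are named in the submitters' processing notes, and their versions and the annotation are not given in the sources used here. The deposited FPKM values, scaled by the authors to transcript length and library size, carry the layout of Cufflinks tables, per the file headers. FPKM names listed repeatedly (277) were not used. Of the per-sample columns, 0 were left unused for lack of a sample.

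Reads on the gene's strand (from 99.5 to 99.6% of stranded reads) were used. Entries that name no gene (unmapped, multimapping or ambiguous reads and reads on no feature, from 61.3 to 69.0%) stayed out of library sizes. Reads on Rn45s stayed in them. Counts were fitted with edgeR 4.0.16 in R 4.3.3 (TMM, filterByExpr by group, quasi-likelihood test, 1 mean per group, 9 residual degrees of freedom, biological coefficient of variation 0.155). Benjamini-Hochberg adjustment ran over all 9644 genes, with a threshold of 0.05. Read ratios were compared by exact permutation tests over samples. Reads carry no molecular identifiers, and the precision of each value was taken from the spread between samples.

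The genes and lists were chosen with earlier results of these data known, including the rise of Sdf2l1 in LKO. Named genes are the 6, their paralogues, Rbbp5, all tested KDEL receptors and partners, the 2 highest and the 2 lowest of each other list in WT, and the 3 genes most like each of the 6. Promoter windows came from RefSeq (mm10) and matched 5 of the 6 genes, Manf being without an entry. Fits were tested on simulated data. Alternatives were other scalings, DESeq2 1.42.0, no filter, 14 libraries, unstranded counts, a replicate block, leaving out each sample, and limma 3.58.1 on log2(FPKM + 1) or log2(FPKM + 0.1). The fit without the FPKM column of LKO vehicle 2, where Rn45s is listed at 0, was chosen after seeing the data.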

Additional observations from a re-analysis of the deposited data

Results flagged for a closer look

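In LKO tunicamycin, sample 1 stood apart for 2 of the 6 genes. Its Manf level was 37.25 CPM, against 22.9 to 24.7 CPM in the other 3 samples, and its gap to the nearest sample was 0.873 of the whole range. Its Nucb2 level was 7.317 CPM, with a gap of 0.971 of the range. The limit for 4 samples is 0.829, and for 1 gene chance passes it in about 1 in 20 groups. Both ends of the range were searched for each of the 6 genes and Creld1, so a pass by chance was likelier than that. The genes come from the same samples, so the 2 passes are not separate evidence. Sdf2l1 was also highest in this sample, at 10.6 CPM, with a gap of 0.744 that is within the limit. Without this sample the LKO tunicamycin log2 fold change was 0.38 for Manf and 0.56 for Nucb2, against 0.56 and 0.78 with it.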

How the results depend on the processing

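The number of the 6 genes called was 3 in WT, 0 in LKO, 0 for genotype with vehicle, 2 for genotype after tunicamycin and 0 for the interaction. Over the 13 fits that left out 1 sample it ranged from 0 to 4 in WT and from 0 to 3 for genotype after tunicamycin, and was 0 throughout in the other 3. With the FPKM values it was 0 in all 4 fits in WT, and for genotype after tunicamycin 0 in 3 fits and 1 with genes of a mean FPKM of at least 1. With no filter on low counts it was 1 in LKO. With the replicate block it was 4, 0, 0, 2 and 0 in the order above. The 18 pairs of same-numbered samples had r from -0.118 to 0.141 between their deviations from group means. Of the 13 samples, 2 were closest to their own number. The labels do not say what a shared number means, and these values cannot show it. Counts over all genes went from 35 in WT to between 0 and 615 without 1 sample and between 0 and 289 under other settings. In the same order they went from 3 in LKO to between 0 and 67 and between 0 and 153, from 4 with vehicle to between 0 and 17 and between 0 and 84, and from 83 after tunicamycin to between 0 and 183 and between 4 and 261. The cause was not tested.

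Values near 0 changed sign. Sdf2 for genotype with vehicle was 0.12 with log2(FPKM + 1) with and without the filter, 0.22 with log2(FPKM + 0.1) and 0.18 without the FPKM column of LKO vehicle 2, where Sdf2 with tunicamycin in LKO was -0.0046. Leaving out a sample of 1 library, the LKO tunicamycin values ranged from -0.10 to 0.41 for Creld2 and from -0.16 to 0.035 for Nucb1, and without the summed LKO vehicle sample they were 1.05 and 0.056. The genotype values with vehicle ranged from -0.40 to 0.19 for Sdf2l1, from -0.26 to 0.13 for Sdf2, from -0.0020 to 0.20 for Nucb1 and from -0.13 to 0.55 for Nucb2, and without the summed sample Nucb1 was at -0.011. The vehicle ratios ranged from -0.53 to 0.25 for Sdf2l1 to Sdf2 and from -0.30 to 0.49 for Nucb2 to Nucb1. With 14 libraries kept apart, the Nucb2 to Nucb1 ratio in LKO was 0.90 with an exact permutation p of 0.0286, a p that counts the near duplicates LKO vehicle 3 and 4 as 2 replicates and so has more values than distinct samples. Creld1 after tunicamycin lost its call with total count scaling, at -0.96 (edgeR adjusted p 0.0753). Depth limits Sdf2, Nucb2 and Creld1 most, with at most 64, 89 and 51 reads in a sample.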
